A study of Homo sapiens with 10 samples.

Results

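The mitochondrial genome of human cells codes for the mRNAs described here: MT-ND1, MT-ND2, MT-ND3, MT-ND4 and MT-ND5 of respiratory complex I, MT-CYB of complex III, MT-CO1, MT-CO2 and MT-CO3 of complex IV, and MT-ATP6 of complex V. They were chosen by name, as mRNAs made by the mitochondrial polymerase and not by RNA polymerase II. Of these 10, 9 had a row among the 59204 human genes of the count tables, and MT-CO3 was not analysed here. A mean count of at least 20 over the 10 libraries was required for a test. MT-CO2, with a mean of 14.1 reads, missed it in total RNA, which left 8 mRNAs there. MT-CO1 also missed it in labelled RNA, which left 7.

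The cells were K562, an established human chronic myeloid leukaemia line. All of them first took up 30 µM 4-thiouridine, a nucleoside built into newly made RNA, for 12 h, with fresh medium every 3 h. They were then washed and chased in 3 mM uridine with 1 µM AZ-5576, with 1 µM JQ1 or with the solvent DMSO. Each of these 3 arms was harvested at 2, 4 and 8 h, and a single 0 h library served all 3. AZ-5576 inhibits CDK9, the kinase that releases paused RNA polymerase II. JQ1 displaces the BET proteins, which help to recruit that kinase, from acetylated chromatin. Iodoacetamide makes the built-in 4-thiouridine read as C in place of T, and the authors counted the labelled reads in a second table. The rule by which they called a read labelled is not stated. RNA of fly S2 cells was added to the purified RNA at 5%, so a level per fly read is relative to the mass of purified RNA and not to the number of cells. Neither the number of cells nor the total RNA per cell can be read from such a level.

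With 1 library for each condition, differences cannot be checked against replicates. Here p-values measure the scatter of libraries about a time course in which each arm leaves a common 0 h level with 1 slope per hour (6 residual degrees of freedom). They come from edgeR's quasi-likelihood test over all genes with Benjamini-Hochberg adjustment, and a call is an adjusted p under 0.05. Intervals on shares are exact 95% Clopper-Pearson intervals and those on ratios exact 95% conditional binomial intervals, and both cover counting error only. Human reads ran from 10293371 to 16008906 per library and fly reads from 1208073 to 2366155. The 10 K562 markers looked up (among them fetal and embryonic globins, TFRC and erythroid transcription factors) each had a median of at least 20 reads, and 4 of 10 markers of other cell types did. The markers of other cells summed to between 673 and 1577 reads per library, against between 132463 and 199799 for the K562 markers. CD3D and EPCAM held most of the other-cell reads, while KRT5 had 0 reads in every library. Their part in the results was not tested.

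Mitochondrial DNA is a small circle that the polymerase POLRMT, with TFAM and TFB2M, transcribes into long RNAs covering many genes. Transfer RNAs lie between most of the mRNAs and are cut out by PRORP and ELAC2, which frees the mRNAs. MTPAP adds short adenosine tails, the LRPPRC and SLIRP pair binds and stabilises the mRNAs, and PNPT1 with SUPV3L1 degrades RNA in the organelle. All of these proteins come from nuclear genes that RNA polymerase II transcribes.

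Libraries of this kind read the 3′ end of tailed RNA, so the ends of the genes are shown, with what a label can mark there. In the last 60 bases of MT-CYB (chrM:15828-15887, plus strand) and MT-ND4 (chrM:12078-12137, plus strand), capitals mark each T, where a built-in 4-thiouridine can be read as C. They number 15 and 19. Sequences are GENCODE v29 transcripts on GRCh38.
MT-CYB: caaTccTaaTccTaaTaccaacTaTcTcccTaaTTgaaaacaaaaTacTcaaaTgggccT
MT-ND4: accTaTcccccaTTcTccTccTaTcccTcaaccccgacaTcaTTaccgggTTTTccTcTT

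Near-identical copies of these genes lie in the nuclear genome, and the ends of some mRNAs are a few bases apart from the copy or identical to it. The next sequences show an end with few differences for MT-ND2 (chrM:5452-5511) and its copy MTND2P28 (chr1:630622-630681), where capitals mark the 3 bases that differ, and an identical end for MT-CO1 (chrM:7386-7445), whose last 60 bases are the same as those of MTCO1P12 (chr1:632557-632616).
MT-ND2: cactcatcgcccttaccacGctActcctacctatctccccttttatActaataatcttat
MTND2P28: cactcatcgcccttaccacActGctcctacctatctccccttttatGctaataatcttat
MT-CO1: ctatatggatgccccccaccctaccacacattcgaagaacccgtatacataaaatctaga
MTCO1P12: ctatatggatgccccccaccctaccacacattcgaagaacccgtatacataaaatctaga
The last 60 bases of MT-CO2 (chrM:8210-8269) match those of MTCO2P12 (chr1:633379-633438) with 0 differences. The same holds for MT-ND1 (chrM:4203-4262) and a stretch of MTND1P23 (chr1:629373-629432). How reads that fit more than 1 place were assigned is not stated, and these rows are uncertain to that extent.

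Together the 9 mRNAs gave 159.3 reads per 1000 fly reads at 0 h. In AZ-5576 they gave 259.2, 258.1 and 222.3 at 2, 4 and 8 h, in JQ1 166.6, 222.4 and 191.7, and in DMSO 232.7, 233.1 and 198. The sum of these gene rows was thus above the 0 h library in all 9 chase libraries, and at each hour it was highest in AZ-5576 and lowest in JQ1. It leaves out nuclear copies, which took 3.07% of human reads at 0 h. With copies added, MT-ND1 had 85.9 at 0 h and 75.6, 60.8 and 73.4 after 8 h of AZ-5576, JQ1 and DMSO. MT-ND2 with copies had 130.9 at 0 h and 149.7, 145.3 and 153.3. The rise of the sum over 0 h may thus depend on how reads were assigned. As a share of human reads the sum of the gene rows was 1.95% at 0 h and 4.13% after 8 h of AZ-5576, against 2.18% after 8 h of DMSO. Human reads per fly read stood at 8.18 at 0 h and 5.38 after 8 h of AZ-5576, against 9.08 after 8 h of DMSO. MT-ND2 alone held more reads than the other 8 rows together in every library. Levels are not compared between mRNAs beyond such sums, because reads of 3′ ends depend on how each tail was primed and on the copies named above.

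MT-ND2 (chrM:4470-5511, all positions GRCh38, plus strand), a membrane subunit of complex I, had 82.4 reads per 1000 fly reads at 0 h. It had 141.2, 132.4 and 115 in AZ-5576, 86, 121.7 and 112.5 in JQ1, and 120.4, 129.6 and 112.6 in DMSO. The 3 arms differed at 2 h, when JQ1 stayed near the 0 h level, and met at 8 h. MT-CYB (chrM:14747-15887), the cytochrome b of complex III, had 34.3 at 0 h and 49.7, 50.1 and 43.6 in AZ-5576, 34.2, 41 and 33 in JQ1, and 47.7, 45.1 and 34.7 in DMSO. After 8 h of AZ-5576 its level was 1.26 times that in DMSO (interval 1.24 to 1.27), and after 8 h of JQ1 0.951 times (interval 0.940 to 0.961). MT-ATP6 (chrM:8527-9207), a membrane subunit of the ATP synthase, had 19.8 at 0 h and 31, 27.9 and 19.9 in AZ-5576, 18.3, 22.7 and 15.4 in JQ1, and 27.2, 23.1 and 16.1 in DMSO. Its peak came at 2 h in AZ-5576 and DMSO and at 4 h in JQ1.

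MT-ND4 (chrM:10760-12137), another membrane subunit of complex I, had 17.8 reads per 1000 fly reads at 0 h, the lowest of its 10 values. It had 32.3, 42.7 and 39.7 in AZ-5576, 24.2, 33 and 27.4 in JQ1, and 32.6, 31.2 and 30.9 in DMSO. At 8 h it had the largest gain over 0 h of the 8 mRNAs tested in every arm, 2.23 times in AZ-5576, 1.54 times in JQ1 and 1.73 times in DMSO. MT-ND1 (chrM:3307-4262), which joins the membrane and matrix arms of complex I, went the other way in all arms. It had 2.1 reads per 1000 fly reads at 0 h and 1.34, 0.761 and 0.723 in AZ-5576, 1.26, 0.814 and 0.643 in JQ1, and 1.37, 0.87 and 0.766 in DMSO. The MT-ND1 row holds few reads beside its copy, as given below. MT-ND3 (chrM:10059-10404), also in complex I, stayed between 1.82 (JQ1 at 2 h) and 3.34 (AZ-5576 at 4 h), with 2.36 at 0 h. MT-ND5 (chrM:12337-14148), next to MT-ND6 on the other strand, had 0.451 at 0 h and between 0.546 and 0.836 in the chase libraries.

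MT-CO1 (chrM:5904-7445) and MT-CO2 (chrM:7586-8269), which encode catalytic subunits of complex IV, were sparse. MT-CO1 had between 76 and 196 reads per library, and after 8 h its level was 0.635 times DMSO in AZ-5576 (interval 0.5003 to 0.806) and 0.874 times in JQ1 (interval 0.689 to 1.11). MT-CO2 had between 7 and 34 reads per library, too few to order the arms.

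**Figure D1:**
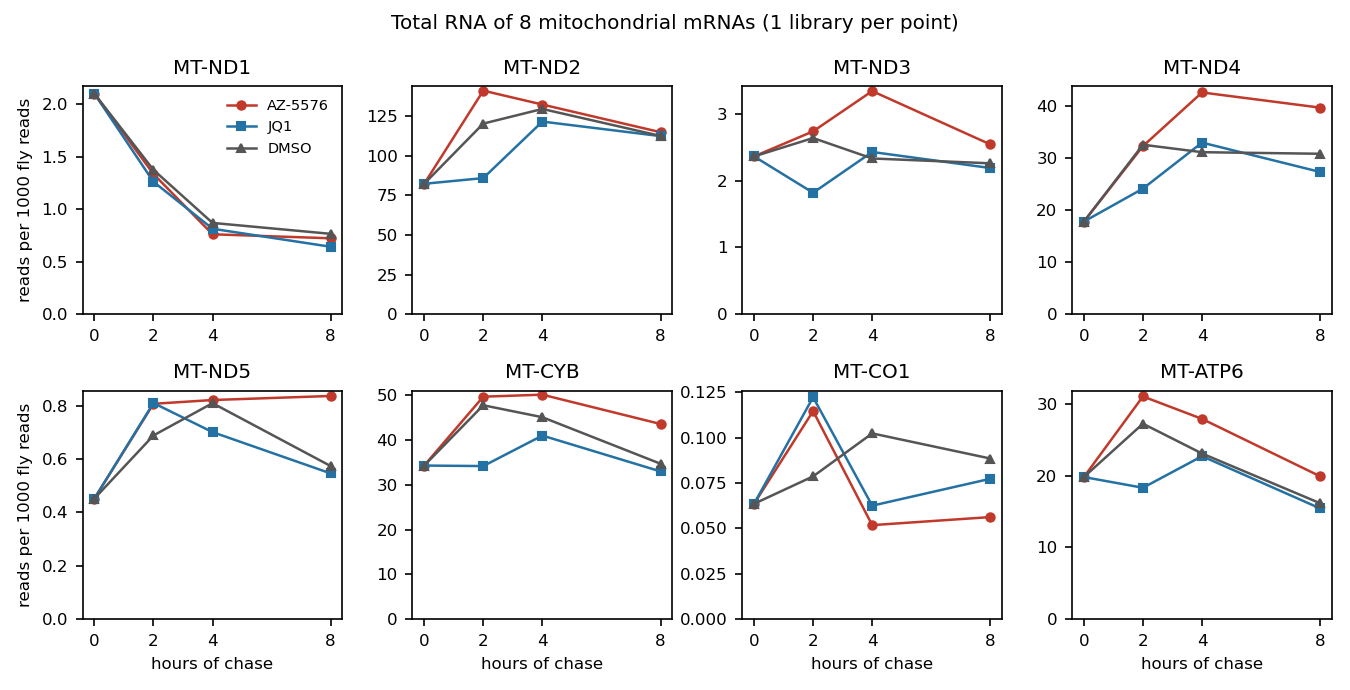
Total reads per 1000 fly reads (y axes from 0) against hours of chase for the 8 mRNAs with a mean of at least 20 reads. Each point is 1 library, and the 0 h library is shared by AZ-5576, JQ1 and DMSO. MT-ND4 lies at 39.7 after 8 h of AZ-5576 and 30.9 in DMSO, while MT-ND1 falls to 0.723 and 0.766.

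Against DMSO, none of the 8 mRNAs tested was called in AZ-5576, where 73.8% of 11797 genes were called (73.3% lower and 0.568% higher). At an unadjusted p under 0.05, 0 of 8 passed, and DESeq2 called 0. Their median slope difference was 0.04 log2 per hour (range −0.09 for MT-CO1 to 0.06 for MT-ND4, SE between 0.03 and 0.06), while the median over all genes was −0.19. Total RNA courses were uneven, as MT-ND2 in AZ-5576 rose by 2 h and then fell. Departure from a straight line counts as scatter, so the absence of a call does not show equal levels. At 8 h the median log2 ratio to DMSO was 0.24 for the 8 mRNAs and −1.63 for all genes. At 2 and 4 h these medians were 0.12 and 0.09 for the mRNAs and −0.25 and −0.67 for all genes. After 8 h, 6 of the 8 mRNAs were above DMSO, as were 6.03% of all genes. Per fly read, the median of the mRNAs thus lay closer to DMSO at each hour than the median of all genes. Single mRNAs ran from 0.635 times DMSO (MT-CO1) to 1.46 times (MT-ND5) after 8 h of AZ-5576. Relative to the 0 h library, AZ-5576 medians over all genes were 0.07, −0.36 and −1.01 log2 at 2, 4 and 8 h. The matching DMSO medians, 0.32, 0.31 and 0.51, lay above 0 h. Ratios to DMSO therefore include this rise and do not measure a fall from 0 h.

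These values are on the fly scale. With TMM scaling, which centres the human genes, the median of all genes in AZ-5576 minus DMSO moved up by 0.16 log2 per hour. On that scale 7 of the 8 mRNAs were called higher (all but MT-CO1), with a median of 0.21, where 2201 of 11797 genes were called higher. Without the AZ-5576 8 h library, MT-ND3 and MT-ND4 were called on the fly scale, and without the 0 h library MT-ND4 was. Over all genes, 3968 were called without the AZ-5576 8 h library, and at most 9016 when each library was left out in turn.

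JQ1 gave no call among the 8 mRNAs either, where 18% of genes were called (16.2% lower and 1.8% higher). At an unadjusted p under 0.05, 0 passed, and DESeq2 called 0. All 8 slope differences from DMSO lay between −0.03 and −0.01 log2 per hour, with SEs between 0.03 and 0.06, and the median over all genes was −0.05. The hours differed, with a median log2 ratio of JQ1 to DMSO of −0.46, −0.09 and −0.07 for the mRNAs at 2, 4 and 8 h. Over all genes these medians were −0.33, −0.29 and −0.31. At 2 h, MT-CO1 and MT-ND5 were above DMSO in JQ1 and the other 6 below it. Both comparisons use the same DMSO libraries.

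Between the inhibitors, MT-CYB and MT-ND4 were called higher in AZ-5576 than in JQ1, where 55.9% of genes were called (0.831% higher and 55% lower). The slope difference was 0.07 ± 0.03 log2 per hour for MT-CYB (SE, edgeR adjusted p = 0.0463) and 0.08 ± 0.03 for MT-ND4 (SE, edgeR adjusted p = 0.0418). DESeq2 called 0 of the 8, as did the fits without the AZ-5576 4 h or the JQ1 8 h library, and TMM scaling called 7. The MT-CYB call was also lost without the JQ1 2 h, the DMSO 4 h or the AZ-5576 8 h library, and that of MT-ND4 without the AZ-5576 2 h library. Without the 0 h library 4 were called, and without the JQ1 4 h library 3. Over all genes, between 1981 and 7079 were called when each library was left out in turn. Over the other settings, TMM scaling among them, it was between 149 and 6710. With all libraries on the fly scale, the median over the 8 mRNAs was 0.06, and over all genes −0.13.

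**Figure D2:**
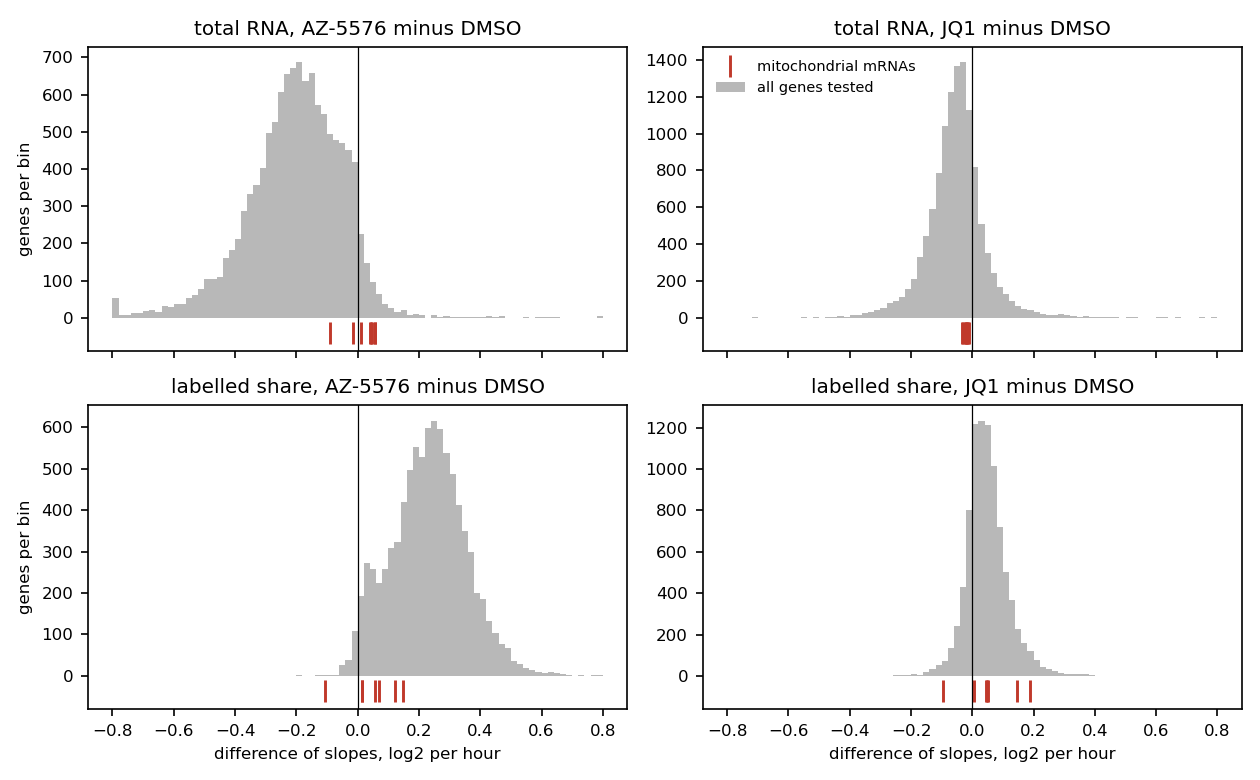
Histograms of slope differences from DMSO over all genes tested (11797 in total RNA, 8817 in labelled share; x axis in log2 per hour, the outermost bins also hold values beyond them), with 1 red mark for each mitochondrial mRNA under the axis. In AZ-5576 the mRNAs lie from −0.09 to 0.06 in total RNA, right of the median of −0.19, and from −0.11 to 0.15 in labelled share, left of the median of 0.23.

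Followed from 0 h, total RNA in the MT-ND1 row fell in every arm, by 0.17 ± 0.03 log2 per hour in AZ-5576, 0.19 ± 0.03 in JQ1 and 0.15 ± 0.03 in DMSO (SE, edgeR adjusted p = 0.000282, 0.000414 and 0.00186 in that order). Nuclear copies held 97.6% of the joint MT-ND1 reads at 0 h. Gene and copies together had 85.9 reads per 1000 fly reads at 0 h. At 2 h they had 140.1, 123.6 and 120.2 in AZ-5576, JQ1 and DMSO, and at 8 h 75.6, 60.8 and 73.4. The early fall is thus that of the row and not of the joint reads. In AZ-5576 MT-ND4 rose by 0.10 ± 0.03 log2 per hour (SE, edgeR adjusted p = 0.0093), and the other 6 were not called. Over all genes, 69.7% were called in AZ-5576 (69.3% lower and 0.364% higher). With TMM scaling MT-ND1 was not called in AZ-5576 (−0.04) and 6 others were called higher, where 823 of 11797 genes were. In JQ1 MT-ATP6 also fell, by 0.10 ± 0.03 (SE, edgeR adjusted p = 0.0174), where 32.3% of genes were called (17.3% lower and 14.9% higher). That call was lost without the JQ1 8 h or the AZ-5576 8 h library. In DMSO MT-ND1 was the only call, where 28.2% of genes were called (3.81% lower and 24.4% higher), and it was lost without the DMSO 8 h library. The arms share the 0 h library, so these values are not independent. The MT-ND4 call was lost without the AZ-5576 8 h library or the 0 h library.

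Labelled reads made up 10.2% of the reads of the 9 mRNAs at 0 h (interval 10.1% to 10.3%), against 32.4% for all other human reads. Among the 7 mRNAs tested, the 0 h share ran from 3.16% for MT-ND4 and 4.8% for MT-ND3 to 12.4% for MT-ATP6 and 23.6% for MT-ND1. MT-ND5 had 8.23%, MT-CYB 10.2% and MT-ND2 11.1%. With the reads of nuclear copies added, MT-ND1 was at 11.5%, MT-ND5 at 15.2%, MT-ND2 at 12.9% and MT-ND4 at 4.33%. The range over the gene rows thus depends in part on how reads were assigned. For these rows of the 7 mRNAs the median was 10.2%, and that of 8817 genes was 53.8%. All 7 mRNAs were thus far below the middle of the genes after the same 12 h of label. The number of T in the last 100 bases ran from 25 in MT-CYB to 30 in MT-ND5. Across these 7 mRNAs it had a Pearson correlation of 0.09 and a Spearman correlation of 0.25 with the 0 h share of the gene rows. This is a description over few genes from 1 library.

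Label then left these mRNAs at a similar pace in each arm. At 2, 4 and 8 h the 9 mRNAs had labelled shares of 3.98%, 1.52% and 0.345% in AZ-5576, 3.93%, 1.52% and 0.322% in JQ1, and 3.89%, 1.43% and 0.262% in DMSO. At 2 h the AZ-5576 interval of 3.91% to 4.04% overlapped that of DMSO, 3.82% to 3.96%. At 8 h the intervals no longer overlapped, with 0.329% to 0.361% in AZ-5576 and 0.245% to 0.279% in DMSO. All other reads kept 26.6% labelled after 8 h of AZ-5576, 15% after JQ1 and 13.5% after DMSO.

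MT-ND2 shows the course most precisely, with 13491 labelled reads at 0 h. Its labelled share was 11.1% at 0 h and 4.04%, 1.51% and 0.332% in AZ-5576, 4.11%, 1.47% and 0.302% in JQ1, and 4.03%, 1.38% and 0.228% in DMSO. The arms lay close together at 2 h and in the order AZ-5576, JQ1, DMSO at 8 h. MT-CYB had 3.55%, 1.25% and 0.305% in AZ-5576, 3.52%, 1.36% and 0.259% in JQ1, and 3.47%, 1.24% and 0.185% in DMSO. MT-ATP6 kept more of its label, with 0.924% after 8 h of AZ-5576, 0.91% after JQ1 and 0.882% after DMSO, from 12.4% at 0 h. Its 3 intervals at 8 h overlapped. MT-ND4 ended at 0.132% in AZ-5576, 0.153% in JQ1 and 0.11% in DMSO, with overlapping intervals. MT-ND1 did not follow the order of MT-ND2 either, with 0.526% in AZ-5576, 0.535% in JQ1 and 1.48% in DMSO at 8 h, from 9, 6 and 20 labelled reads. MT-ND5 and MT-ND3 had between 1 and 13 labelled reads at 8 h in each arm. In MT-CO1, with between 0 and 17 labelled reads per library, no course could be read.

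**Figure D3:**
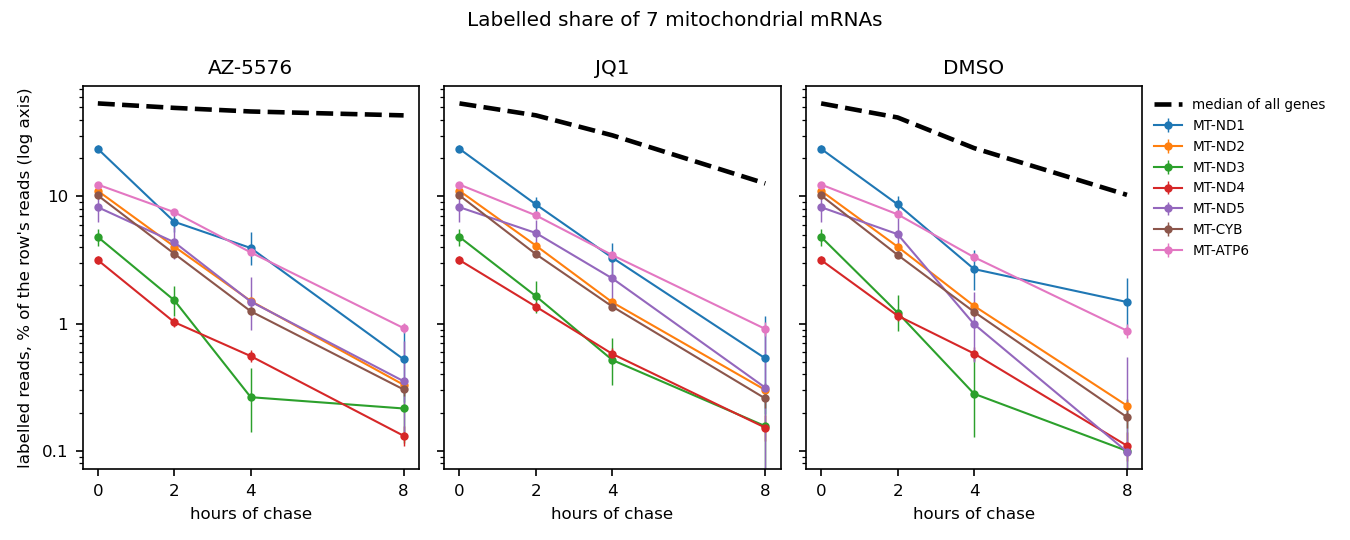
Labelled reads as a percentage of each mRNA's reads (log axis) against hours of chase in AZ-5576, JQ1 and DMSO, with exact 95% intervals, and the median of 8817 genes as a dashed line. The mitochondrial lines fall alike in the 3 panels, MT-ND2 to 0.332%, 0.302% and 0.228%, while the dashed line ends at 43.3%, 12.7% and 10.3%.

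Expressed as the part of the 0 h share still present, the 7 mRNAs had medians of 34.8%, 16.8% and 4.18% at 2, 4 and 8 h in AZ-5576, 37.1%, 14.1% and 3.53% in JQ1, and 36.6%, 12.5% and 2.34% in DMSO. Over 8817 genes it was 96.6%, 92.4% and 88.8% in AZ-5576, 87%, 64.4% and 26.5% in JQ1, and 84.2%, 50.7% and 20.8% in DMSO. The median gene thus kept 88.8% of its share through 8 h of AZ-5576, and the 7 mRNAs kept between 2.22% (MT-ND1) and 7.46% (MT-ATP6). The median loss was slower in the last interval than in the first, though not for MT-ATP6 and MT-ND5, which lost label faster over 4 to 8 h than over 0 to 2 h in all arms. The median change of log2 share per hour was −0.76, −0.71 and −0.51 over 0 to 2, 2 to 4 and 4 to 8 h in AZ-5576, −0.71, −0.68 and −0.57 in JQ1, and −0.72, −0.77 and −0.60 in DMSO. A single slope is therefore an average over an uneven course.

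As labelled reads per fly read, all 7 mRNAs fell in every arm, where 85.3% of 8817 genes were called lower in AZ-5576, 90.9% in JQ1 and 88.5% in DMSO. Few genes were called higher (0.0454% in AZ-5576, 0.136% in JQ1 and 0.0454% in DMSO), and in JQ1 91% were called in either direction. The median slope was −0.58 log2 per hour in AZ-5576, −0.62 in JQ1 and −0.71 in DMSO, and over all genes −0.19, −0.23 and −0.22. These slopes correspond to median half-lives of label of 1.72 h, 1.61 h and 1.41 h for the mRNAs in AZ-5576, JQ1 and DMSO. In DMSO the slowest fitted loss was that of MT-ND4 (half-life 1.93 h) and the fastest that of MT-ND5 (1.32 h), with MT-ND2 at 1.52 h and MT-CYB at 1.4 h. MT-ND5 had only 55 labelled reads at 0 h and 1 after 8 h of DMSO. With each library left out in turn, its slope ran from −0.89 to −0.68 log2 per hour. That of MT-CYB ran from −0.73 to −0.64, so the order of the fastest is uncertain. In DMSO 369 of 8817 genes fell faster than MT-ND4 and 32 faster than MT-CYB. Under AZ-5576 MT-ND1 had 1.16 h and MT-ND4 2.23 h. With TMM scaling, which moved the median of all genes up by between 0.18 and 0.22 log2 per hour, all 7 were still called lower in each arm, with medians of −0.40, −0.41 and −0.51 in AZ-5576, JQ1 and DMSO.

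Between arms few differences of labelled slopes were called. MT-CYB lost labelled reads more slowly in AZ-5576 than in DMSO, by 0.10 ± 0.03 log2 per hour (SE, edgeR adjusted p = 0.0475), where 4.64% of genes were called (3.45% higher and 1.19% lower). That 1 call of 7 was lost with TMM scaling and without any 1 of 8 libraries (all but the 0 h and the DMSO 2 h one). In AZ-5576 minus DMSO, 3 of 7 passed an unadjusted p under 0.05. There 6 of 7 differences were above 0, as were 6233 of 8817 genes. The median was 0.07 log2 per hour, against 0.03 over all genes. In JQ1 none of the 7 was called against DMSO with edgeR or DESeq2, where 0.635% of genes were called (0.306% higher and 0.329% lower). At an unadjusted p under 0.05, 1 passed. MT-ND1 leaned the other way in both inhibitors, at −0.15 ± 0.07 in AZ-5576 (SE, edgeR adjusted p = 0.225) and −0.16 ± 0.07 in JQ1 (SE, edgeR adjusted p = 0.541). With each library left out in turn, its difference ran from −0.23 to 0.08 in AZ-5576 and from −0.24 to 0.07 in JQ1. Both comparisons use the same DMSO libraries. At 8 h MT-ND1 had 20 labelled reads in DMSO, 9 in AZ-5576 and 6 in JQ1.

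The share of labelled reads within each row does not depend on the fly scale. Here 2 of the 7 mRNAs were called higher in AZ-5576 than in DMSO, where 88% of genes were called higher and 0.0227% lower. These were MT-CYB, by 0.07 ± 0.03 log2 per hour (SE, edgeR adjusted p = 0.0164), and MT-ND2, by 0.06 ± 0.02 (SE, edgeR adjusted p = 0.00904). The median was 0.06 over the mRNAs and 0.23 over all genes. A larger difference than that of MT-CYB was found for 7813 of 8817 genes, and than that of MT-ATP6 (0.01 ± 0.02) for 8500. Both calls were lost without the AZ-5576 8 h library or the DMSO 8 h library. MT-CYB was at −0.01 without the AZ-5576 8 h library. JQ1 against DMSO gave 0 calls among the 7 with edgeR and with DESeq2, and 1 at an unadjusted p under 0.05, where 6.16% of genes were called (5.92% higher and 0.238% lower). The median there was 0.05 for the mRNAs and 0.04 for all genes.

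The tables also list 372 copies of mitochondrial mRNA genes in the nuclear genome. At 0 h the 9 genes took 1.95% of human reads, against 3.07% for all copies together. Of these copies, 17 had a mean of at least 20 reads, and 5 in 1 block of chromosome 1 held at least 97.2% of copy reads in every library. They are MTND1P23, MTND2P28, MTCO1P12, MTCO2P12 and MTATP8P1, and their aligned bases are 99.4%, 98.4%, 98.7%, 98.2% and 97.6% identical to the mitochondrial gene. MT-ND1 had a mean of 1659 reads and MTND1P23 148482. MT-CO1 had 129.5 and MTCO1P12 16047, and MT-CO2 had 14.1 and MTCO2P12 7996. For MT-ND2 the order was turned, with 185810 in the gene and 67852 in MTND2P28. Summed over all copies of a parent, copies held 97.6% of the joint reads for MT-ND1 at 0 h, 99.5% for MT-CO1, 99.9% for MT-CO2, 66.7% for MT-ND5, 37% for MT-ND2 and 14.8% for MT-ND4. For MT-CYB, MT-ATP6 and MT-ND3 it was 1.05% or less.

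Label left the copies too, at a pace that differed between them. The labelled share of MTND1P23 was 11.2% at 0 h and 0.321% in AZ-5576, 0.298% in JQ1 and 0.265% in DMSO at 8 h. That of MTND2P28 was 16% at 0 h and 1.67%, 1.66% and 1.38% in AZ-5576, JQ1 and DMSO at 8 h. At 8 h MTND1P23 kept 2.87%, 2.66% and 2.37% of its 0 h share in AZ-5576, JQ1 and DMSO. MT-ND2 kept 3%, 2.73% and 2.06% of its 0 h share in these arms, against 10.4%, 10.4% and 8.62% for MTND2P28. MTCO1P12 had 13.8% at 0 h, within the interval of MT-CO1 (6.77% to 21.2%), and 1.77%, 1.78% and 1.4% at 8 h. Over all copies the share was 17% at 0 h and 1.33%, 1.37% and 1.17% at 8 h. Reads of the MT-CO1 end cannot be assigned to gene or copy by sequence, as the lines above show. When the reads of copies were added to their genes, all 9 mRNAs could be tested and all 9 fell in labelled RNA in each arm, and 0 of the 9 were called against DMSO in total RNA in either inhibitor.

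Total RNA of the copies did move differently from the gene rows. MTND1P23 had 83.8 reads per 1000 fly reads at 0 h and 139, 95 and 74.8 in AZ-5576, 122, 82 and 60.1 in JQ1, and 119, 97.2 and 72.7 in DMSO. MT-ND1 had fallen by 2 h in all arms, when its copy stood above 0 h in all arms. MT-ND2 gained over 0 h by 8 h in all arms, and MTND2P28, at 48.5 at 0 h, fell to 34.7 in AZ-5576, 32.8 in JQ1 and 40.7 in DMSO. Which copies' reads came from mitochondrial RNA was not tested.

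**Figure D4:**
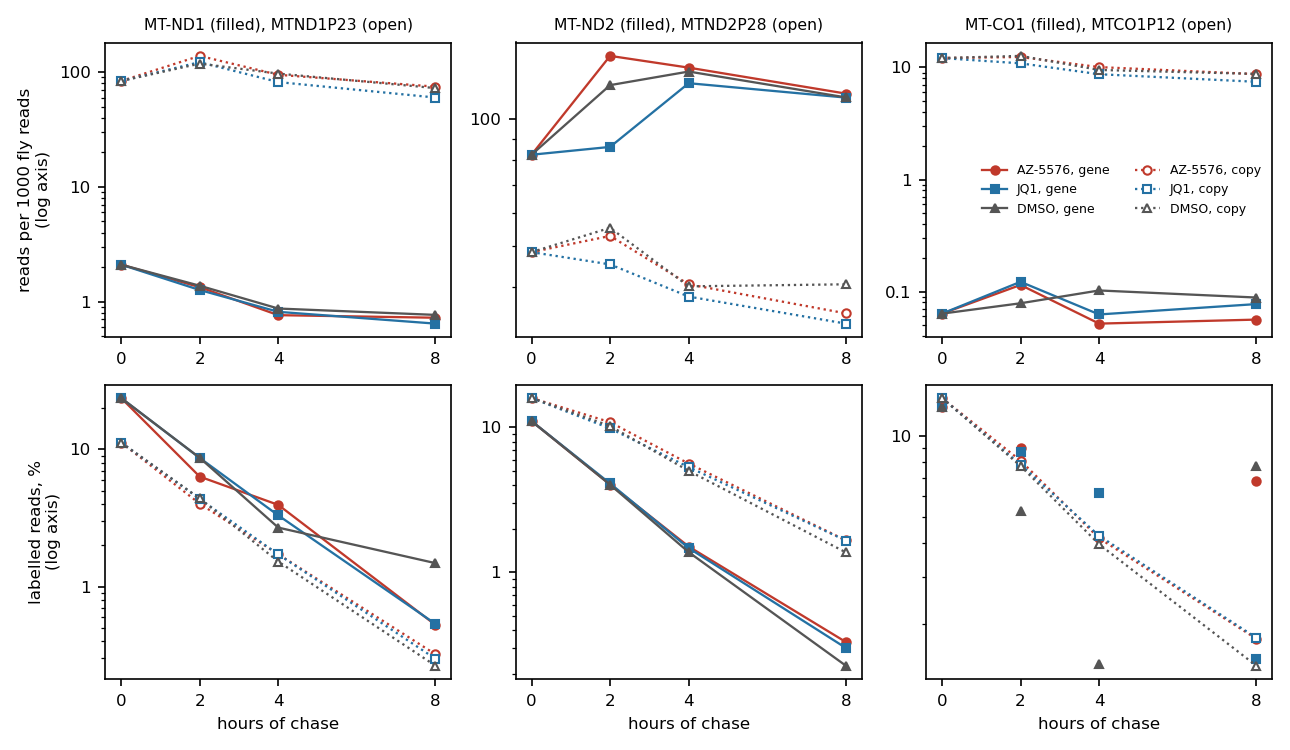
Reads per 1000 fly reads (top, log axis) and labelled share (bottom, log axis) of MT-ND1, MT-ND2 and MT-CO1 (filled, solid lines) and of their chromosome 1 copies (open, dotted lines) against hours of chase in AZ-5576, JQ1 and DMSO, 1 library per point. MT-CO1 shares rest on 17 labelled reads or fewer, have no lines, and the value of 0 in AZ-5576 at 4 h is not drawn. Shares of MTND1P23 fall from 11.2% at 0 h to between 0.265% and 0.321%.

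The nuclear genes that make and handle mitochondrial RNA mostly fell per fly read in AZ-5576. Of 39 listed genes for mitochondrial transcription, RNA processing and RNA stability, 38 were tested in total RNA, and 36 were called lower and 0 higher in AZ-5576 against DMSO, where 73.3% of all genes were called lower. Their median slope difference was −0.29 log2 per hour, against −0.19 for all genes. With TMM scaling 23 were called lower and 3 higher (SLIRP, SSBP1 and HSD17B10), and the median was −0.13. On that scale 3527 of all 11797 genes were called lower and 2201 higher. Without the AZ-5576 8 h library 23 were called lower. From 0 h in AZ-5576, 35 of the 38 were called lower and 0 higher, where 69.3% of all genes were called lower. The median from 0 h was −0.18 log2 per hour. Ratios to DMSO, given next, also take in changes in DMSO over the 8 h. POLRMT, the polymerase, had 0.476 times the DMSO level after 8 h of AZ-5576, with 502 reads against 786 (slope difference −0.11 ± 0.04 log2 per hour, SE, edgeR adjusted p = 0.0154), and with TMM scaling its slope difference was 0.05 and not called. TFAM, which packs the DNA and starts transcription, had 0.295 times the DMSO level, and TFB2M, which opens the promoter, 0.175 times. TEFM, the elongation factor, had 0.11 times, from 27 reads against 183.

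Among the stability factors, MTPAP was at 0.0788 times the DMSO level after 8 h of AZ-5576 and LRPPRC at 0.22 times, while its partner SLIRP was at 0.675 times. PNPT1 and SUPV3L1, of the RNA-degrading complex, were at 0.251 and 0.209 times. All of these differed from DMSO by slope (edgeR adjusted p between 9.18e-08 for MTPAP and 0.0291 for SLIRP). SUPV3L1 had 64 reads at 0 h, 143 after 8 h of AZ-5576 and 509 after 8 h of DMSO. PNPT1 had 177, 208 and 617 reads there and MTPAP 251, 65 and 615, while fly reads were 1479776, 2366155 and 1763347. These genes rose per fly read in DMSO, so their ratios to DMSO do not measure a fall from 0 h. With TMM scaling SLIRP was called higher (0.10) and PNPT1 was not called (−0.07). MTPAP had a slope difference of −0.44 log2 per hour. Beyond the factors already named, the methyltransferase TRMT61B, the DNA helicase TWNK and the RNA-binding protein FASTKD2 had the largest differences among those with a mean of at least 100 reads, at −0.50, −0.40 and −0.40 log2 per hour. In JQ1, where 16.2% of all genes were called lower and 1.8% higher, 13 of the 38 were called lower and 0 higher, with a median of −0.09 log2 per hour, against −0.05 for all genes. Those 13 calls fell to 0 without the DMSO 8 h library and 5 without the JQ1 4 h library, and with TMM scaling 4 were called lower and 1 higher, against 931 lower and 643 higher of 11797 genes. Beyond the factors already named, TWNK (−0.20 ± 0.04, SE, edgeR adjusted p = 0.00155), the nuclease EXOG and TRMT61B (−0.16) had the largest called differences among those with a mean of at least 100 reads. MTPAP (−0.18, 0.44 times at 8 h) and PNPT1 (−0.16, 0.393 times) were called, and POLRMT (0.532 times, edgeR adjusted p = 0.0548), TFAM (0.889 times) and LRPPRC (0.793 times) were not. These are levels of mRNA, and levels of the proteins were not measured.

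**Figure D5:**
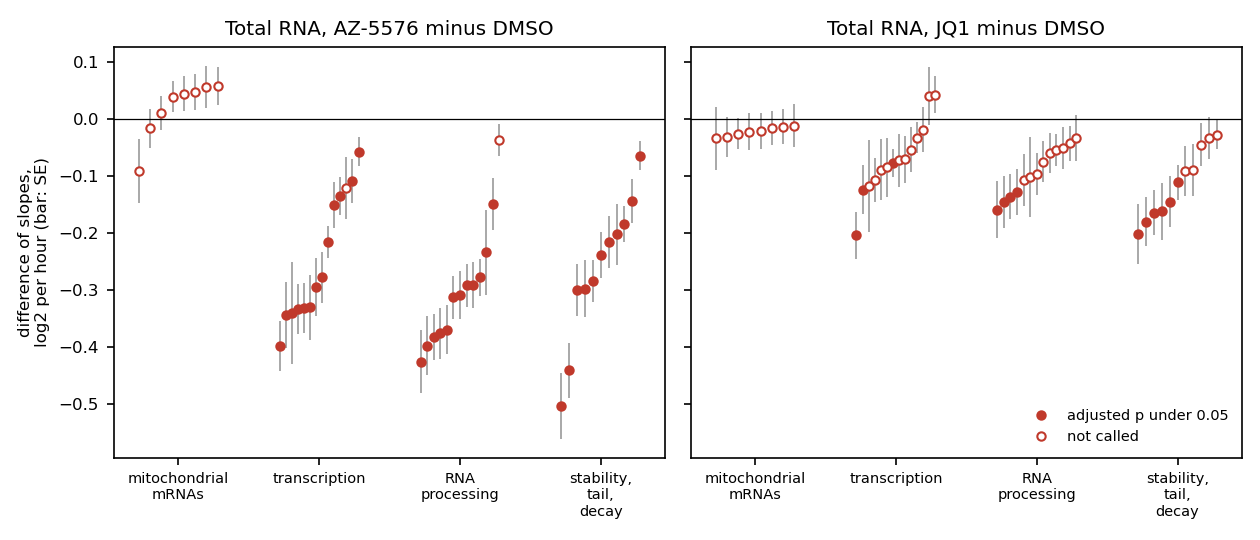
Slope differences of total RNA (log2 per hour, bars show the SE) in AZ-5576 minus DMSO and JQ1 minus DMSO for the 8 mitochondrial mRNAs and 3 lists of nuclear genes for mitochondrial RNA, each point a gene, filled where called. In AZ-5576 the list genes lie between −0.50 and −0.04 and the mRNAs between −0.09 and 0.06, on the fly scale (9 of the 38 list genes are above 0 with TMM scaling).

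Nuclear genes with symbols of subunits of the same respiratory complexes, called subunit genes here, had a median between these groups. They were picked by symbol pattern alone. The pattern does not exclude all pseudogenes, takes in the inhibitor ATP5IF1 and leaves out some subunits, such as COX4I1 and NDUFAB1. Of 145 listed, 90 were tested, and 18 were called lower and 0 higher in AZ-5576 against DMSO, where 73.3% of all genes were called lower, with a median of −0.03 log2 per hour. Of 77 tested genes for mitochondrial ribosomal proteins, which translate these mRNAs, 69 were called lower and 0 higher, with a median of −0.17. The direction of both lists depended on the scale. With TMM scaling 1 subunit gene was called lower and 66 higher (median 0.14), and 18 ribosomal protein genes lower and 16 higher (median −0.00136), against 3527 lower and 2201 higher of 11797 genes. Without the AZ-5576 8 h library 3 subunit genes and 29 ribosomal protein genes were called lower, and without the DMSO 8 h library 7 and 44. In labelled share in AZ-5576 minus DMSO, the 7 mitochondrial mRNAs had a median of 0.06 log2 per hour, against 0.04 for subunit genes (43 of 80 called higher) and 0.21 for ribosomal protein genes (74 of 76), where 88% of all genes were called higher. In JQ1, 3 of 90 subunit genes and 30 of 77 ribosomal protein genes were called lower in total RNA, where 16.2% of all genes were, with medians of −0.02 and −0.09, and 0 of both without the DMSO 8 h library. With TMM scaling 1 subunit gene was called lower and 6 higher in JQ1, and 15 ribosomal protein genes lower and 0 higher.

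Outside the mitochondrial genome, the profile over the 10 libraries most like the mean of the mRNAs was that of IFITM3, with a Pearson correlation of 0.95 in log2 reads per fly read among 8170 genes. PRAF2 (0.85), RPL15P17 (0.83) and ADM5 (0.83) were also among the 5 most alike. Among the mRNAs themselves, MT-ATP6 (0.93) and MT-CYB (0.91) were closest to their mean, and MT-ND1 (0.19) and MT-CO1 (0.23) farthest. These correlations share the libraries and the fly scale, and are given as a description.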

How the data were processed

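The deposited values are raw counts of reads by gene in 10 K562 libraries, in tables of total, labelled (named nascent) and fly reads. The submitters' processing notes name bedtools, Trim Galore 0.6.5, the demultiplexer bcl2fastq 2.17.1.14 and the builds hg38 and dm6. The aligner, the rule for labelled reads and the handling of reads that fit several places are not given in the sources used here. Symbols matched 55381 of 59204 identifiers. Positions and sequences are those of GENCODE v29 (GRCh38).

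Counts of genes with a mean of at least 20 were fitted with edgeR 4.0.16 (R 4.3.3), with log fly totals as offset, a common 0 h level and 1 slope per arm, and labelled share with log(total count + 0.5) as offset. SEs were derived from the slope and its F statistic. The coefficient of variation was 0.205 for total, 0.188 for labelled RNA and 0.131 for share. Ratios between libraries carry exact conditional binomial intervals. Alternatives were TMM and fly TMM scaling, no filter, DESeq2 1.42.0, only the arms compared, time levels, copies added to their genes and each library left out. Nuclear copies were aligned with Biopython 1.88.

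The members, lists and tests were chosen with earlier results of these data known. Named genes are the members, their genomic neighbours, 9 factors of mitochondrial RNA, up to 3 further list genes per inhibitor with the largest called difference (mean of at least 100 reads), and the 5 most similar profiles, of which 1 is not reported here. Single copies and transfer RNA rows are named outside this rule, chosen after their values were seen.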

Additional observations from a re-analysis of the deposited data

How the results depend on the processing

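Medians over the mRNAs are slopes in log2 per hour. With TMM scaling in place of fly reads, labelled medians were −0.40 in AZ-5576, −0.41 in JQ1 and −0.51 in DMSO from 0 h, and total RNA medians 0.15 in AZ-5576 (6 called) and −0.0549 in DMSO (3 called). Total RNA differences were then 0.21 for AZ-5576 minus DMSO (7 called), 0.17 for AZ-5576 minus JQ1 (7 called) and 0.0312 for JQ1 minus DMSO, and MT-ATP6 in AZ-5576 from 0 h (0.10) and MT-ND1 in AZ-5576 minus DMSO (0.15) turned positive. Adding copies gave labelled medians of −0.54 in AZ-5576 and −0.57 in DMSO, total medians of −0.0158 (4 called) in AZ-5576, −0.0921 (5 called) in JQ1 and −0.0695 (3 called) in DMSO, and 1 call in labelled share of AZ-5576 minus DMSO. The labelled AZ-5576 minus DMSO call (MT-CYB) became 0 with TMM, without the filter, with only the arms compared and with time levels (a level per hour and 1 term per inhibitor). The AZ-5576 minus JQ1 calls became 0 with DESeq2 and with time levels and 1 with only the arms compared. In total RNA from 0 h, DMSO had 2 calls without the filter, and JQ1 a median of −0.00114 and 1 call with only the arms compared. Scaled to all human reads, the median log2 ratio to DMSO at 8 h was 0.99 in AZ-5576 and 0.12 in JQ1, a scaling chosen after seeing the data. The causes of these changes were not tested.

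Leaving out each library in turn, medians ran from −0.62 to −0.55 (labelled, AZ-5576), −0.68 to −0.61 (labelled, JQ1) and −0.72 to −0.64 (labelled, DMSO), with 7 calls throughout. Labelled differences ran from 0.05 to 0.10 (AZ-5576 minus DMSO, 0 to 1 call) and −0.02 to 0.03 (JQ1 minus DMSO, 0 calls). Share differences ran from −0.00584 (MT-CYB without AZ-5576 at 8 h) to 0.0716 (AZ-5576 minus DMSO, 0 to 3 calls; MT-CYB alone up to 0.0890) and 0.02 to 0.06 (JQ1 minus DMSO, 0 calls). Total RNA ran from −0.00840 to 0.0765 (AZ-5576, 1 to 2 calls), −0.0725 to −0.0254 (JQ1, 1 to 3) and −0.0437 to 0.0321 (DMSO, 0 to 2). Total differences ran from −0.00338 to 0.0912 (AZ-5576 minus DMSO, 0 to 2), 0.0466 to 0.113 (AZ-5576 minus JQ1, 0 to 4) and −0.0685 to −0.0147 (JQ1 minus DMSO, 0). Of 1562 single values under alternatives, 1377 were counted as the same. These were called in both fits with the same sign, or uncalled in both and apart by no more than the SE. Of the rest, 37 gained and 36 lost a call, and 109 uncalled values moved by more than the SE. Another 3 turned sign with a call in at least 1 of the fits. Turns of sign among uncalled values were not counted.

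Over all genes, total RNA calls in AZ-5576 minus DMSO were 8712, 5728 with TMM, 3968 without the AZ-5576 8 h library and 293 with time levels. In AZ-5576 minus JQ1 they were 6591, and 1981 without the AZ-5576 8 h, 2614 without the JQ1 8 h library and 149 with time levels. In JQ1 minus DMSO they were 2128, and 183 without the DMSO 8 h library and 0 with time levels (1081 at an unadjusted p under 0.05). With time levels, AZ-5576 minus DMSO had 1 call among nuclear genes for mitochondrial RNA, against 36 (median −0.26, against −0.29), 0 among subunit genes, against 18, and 0 among ribosomal protein genes, against 69. In JQ1 minus DMSO these lists then had 0 calls, against 13, 3 and 30. No paired analysis was possible because the libraries carry no replicate numbers, and the time-levels fit compares arms within each hour. Depth limits the rows of MT-CO1 and MT-CO2, and labelled reads at 8 h for MT-ND1, MT-ND3 and MT-ND5.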

Other observations

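Rows of the mitochondrial genome differed by strand, and strand went largely with the kind of RNA. The tables hold 24 of its 37 annotated genes, of which 16 lie on the plus strand, as all mRNAs above do, and 8 on the minus strand. The minus-strand rows are MT-ND6, a subunit of complex I, and 7 transfer RNA genes. After 8 h all 8 were below 0 h in every arm, with a median of 0.418 times in AZ-5576, 0.463 times in JQ1 and 0.634 times in DMSO. Of the 16 plus-strand rows, 7 were below 0 h in AZ-5576, 10 in JQ1 and 9 in DMSO, with medians of 1.02, 0.887 and 0.916 times. These 16 include the 9 mRNAs above, while 7 of the 8 minus-strand rows are transfer RNA genes. Strand and kind of RNA are thus not separated here. Of the 15 rows other than the 9 mRNAs, on either strand, 13 had a slope below 0 in AZ-5576 from 0 h. Of these 15, 5 were called lower and 1 higher, where 69.3% of all genes were called lower and 0.364% higher. MT-ND6 had 3.03 reads per 1000 fly reads at 0 h and 1.74, 1.11 and 0.73 in AZ-5576, 1.43, 1.23 and 1.141 in JQ1, and 1.92, 1.72 and 1.43 in DMSO. Its slope in AZ-5576 minus that in DMSO was −0.12 ± 0.03 log2 per hour (SE, edgeR adjusted p = 0.00231), the only call among 15 other mitochondrial rows in that comparison, where 73.8% of all genes were called. Whether the authors' counting used strand is not stated. Without strand, reads of MT-ND6 and of the opposite strand cannot be told apart.

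Some rows of transfer RNA genes carried label differently from the mRNAs. MT-TF, the transfer RNA gene before the ribosomal RNAs, had 319 reads per 1000 fly reads at 0 h, above the sum of the 9 mRNAs, and 257, 221 and 276 after 8 h of AZ-5576, JQ1 and DMSO. Its labelled share was 8.28% at 0 h and still 3.56%, 3.97% and 3.71% at 8 h, where MT-ND2 was at 0.332%, 0.302% and 0.228%. MT-TD had 12.1% at 0 h and 4.55%, 7.87% and 6.4% at 8 h. The row of MT-TG, whose gene starts 1 base after that of MT-CO3 ends, behaved like the mRNAs: its labelled share was 18.3% at 0 h and 1.29%, 1.02% and 1.02% at 8 h. The small MT-ATP8 and MT-ND4L rows, which overlap MT-ATP6 and MT-ND4, had labelled shares of 9.6% and 14.1% at 0 h. MT-ND4L was at 0.977%, 1.38% and 1.32% after 8 h of AZ-5576, JQ1 and DMSO.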
